A study of Mus musculus with 69 samples.

Results

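The 9 genes described here encode enzymes of NAD metabolism and heme synthesis in mouse liver: Nampt, Nmnat3, Nadsyn1, Nadk, Tdo2 and Sirt1 on the NAD side, and Alas1, Alad and Fech on the heme side. They were chosen by gene symbol from the 55367 symbols of the deposited tables, and all 9 were among the 14398 genes with enough counts to be tested. For each gene, the amplitude of its daily rhythm and its level are given in 3 groups of livers from mice on a high-fat diet (HFD). The clock hour of the peak is given where the rhythm was called.

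The spliceoform groups are JNK7a (LJ1J27a, labelled CRE; 22 libraries) and JNK7b (LJ1J27b, labelled FLPO; 23 libraries), and the control group is LJ1J2control (labelled GFP; 24 libraries). All 3 share the strain label C57/Bl6J, the HFD and the genotype label J1 J2 lf/lf, and the design text calls the animals hepatocyte-specific JNK spliceoform mice. Livers were taken at clock hours 2, 5, 8, 11, 14, 17, 20 and 23, with 2 to 4 libraries per group and hour. How the recombinases were delivered, which exon each left in place and the light schedule are not stated in the labels. Each comparison with control therefore also sets a Cre or FLPo library against a GFP one, and the protein and the JNK form cannot be told apart. Since no label ties each library to its own mouse, every p-value rests on library-to-library spread alone, part of which may be technical.

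NAD is the electron carrier of central metabolism and the substrate that sirtuins and PARPs consume. The liver makes it from tryptophan through the kynurenine pathway, from nicotinic acid, and by recycling nicotinamide, a route in which NAMPT is the rate-limiting enzyme and whose gene is a known target of the circadian clock. Heme is made by a chain of enzymes that begins with ALAS1, the rate-limiting step in liver; heme in turn is the ligand of the clock repressor REV-ERB alpha (Nr1d1) and a cofactor of TDO2, which opens the tryptophan ring.

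Library totals ran between 26.8 M and 48.6 M estimated fragments (median 32.7 M). Levels are scaled counts per M fragments (CPM). The 8 hepatocyte markers summed to a median of 95338 CPM in JNK7a, 79979 CPM in JNK7b and 91142 CPM in control, and none was at 0 in all libraries. Among the targeted genes, Mapk8 (JNK1) averaged 14.6 ± 3.3 CPM in JNK7a (SD, n = 22), 17.7 ± 2.1 CPM in JNK7b (n = 23) and 17.8 ± 2.3 CPM in control (n = 24). It was lower in JNK7a than in control by a log2 fold change of -0.28 (SE 0.07; edgeR quasi-likelihood adjusted p = 0.0021). Mapk9 (JNK2) averaged 41.0 ± 4.6, 56.7 ± 7.9 and 49.9 ± 10.52 CPM in JNK7a, JNK7b and control, with a log2 fold change of -0.27 in JNK7a against control (SE 0.07; edgeR adjusted p = 0.0050). Neither gene's level was called different between JNK7b and control (edgeR adjusted p = 0.968 for Mapk8 and 0.103 for Mapk9), although Mapk9 passed without both libraries that stand apart (named below; adjusted p = 0.0344) and with limma voom (0.0098). Gene-level counts do not separate exon 7a from exon 7b transcripts, so they do not check which spliceoform a liver carried. Control 8 h replicate 3 and JNK7b 5 h replicate 2 stood apart from their groups in earlier results of these data. The replicate counts compared here do not single them out. In chi-square per degree of freedom, control 8 h replicate 3 differed from replicates 1 and 2 by 92.9 and 80.8. Replicates 1 and 2 differed by 132.0. The JNK7b 5 h pair differed by 74.5 and the JNK7a 2 h pair by 240.4. Values without both libraries are given beside the calls of named genes that they change.

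Promoters are shown for the 4 genes whose rhythm had the smallest p-values in control among those rhythmic in all 3 groups, because these windows accompany the rhythms described below. Each window runs from 250 bases before to 50 bases after a start site annotated by RefSeq on GRCm38.p6, which can differ from the start used in the counting. Nampt lies at chr12:32820085-32820384 on the plus strand, Alas1 at chr9:106247905-106248204 on the minus strand, Alad at chr4:62520014-62520313 on the minus strand and Nmnat3 at chr9:98296320-98296619 on the plus strand. Capitals mark matches, on either strand, to CACGTG (the E-box read by CLOCK and BMAL1) or AGGTCA (the core of the sites read by ROR and REV-ERB factors).
Nampt: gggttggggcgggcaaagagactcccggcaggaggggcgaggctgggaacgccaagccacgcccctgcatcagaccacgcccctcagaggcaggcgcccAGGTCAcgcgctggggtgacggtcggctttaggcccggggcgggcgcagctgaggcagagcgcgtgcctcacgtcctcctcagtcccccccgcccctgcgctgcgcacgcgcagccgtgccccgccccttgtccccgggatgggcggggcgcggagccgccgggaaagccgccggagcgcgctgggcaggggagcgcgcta
Alas1: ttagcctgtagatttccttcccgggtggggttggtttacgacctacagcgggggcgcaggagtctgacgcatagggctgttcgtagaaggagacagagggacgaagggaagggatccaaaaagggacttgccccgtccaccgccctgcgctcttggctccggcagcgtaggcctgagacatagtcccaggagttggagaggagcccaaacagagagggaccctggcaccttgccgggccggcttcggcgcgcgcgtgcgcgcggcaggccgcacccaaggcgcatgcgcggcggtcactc
Alad: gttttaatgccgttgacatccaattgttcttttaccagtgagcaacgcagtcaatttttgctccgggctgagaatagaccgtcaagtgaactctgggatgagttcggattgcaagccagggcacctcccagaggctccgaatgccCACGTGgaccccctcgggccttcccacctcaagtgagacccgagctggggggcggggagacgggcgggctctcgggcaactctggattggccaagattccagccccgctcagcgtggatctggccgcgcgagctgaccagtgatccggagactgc
Nmnat3: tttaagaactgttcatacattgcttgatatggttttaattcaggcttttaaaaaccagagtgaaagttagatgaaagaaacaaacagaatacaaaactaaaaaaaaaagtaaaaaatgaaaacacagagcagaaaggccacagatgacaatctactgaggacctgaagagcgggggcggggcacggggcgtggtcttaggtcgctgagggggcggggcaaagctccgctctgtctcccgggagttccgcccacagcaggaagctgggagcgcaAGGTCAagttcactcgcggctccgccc
The Nampt window held AGGTCA at -151 from the start site and the Nmnat3 window held it at 24 bases past the start. The Alad window held CACGTG at -105, and its RefSeq start lies outside the span of Alad in the annotation that gives the gene positions below. A second annotated Alad window held another CACGTG at -28. Neither annotated Alas1 window held a match. TTANGTAA (the D-box read by DBP, TEF and HLF) and TGACGTCA (the cAMP response element) were also searched, and no window of these 4 genes had a match to either. Of 32851 promoters of this length in the RefSeq table, 7.15% held CACGTG, 16.3% held AGGTCA, 2.32% held TTANGTAA and 1.79% held TGACGTCA. Among the other genes with a window, Sirt1 held CACGTG at -115 and -43, Nadk held it at -40 in its second annotated window, Tdo2 held AGGTCA on the opposite strand at -6, and Nadsyn1 held no match. Windows of 8 of the 9 genes were searched. A match is a string of letters in a window and does not show that a factor binds there.

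Nampt (chr12:32819545-32853349, mm10) recycles nicotinamide to nicotinamide mononucleotide, and its mRNA had a high-amplitude evening rhythm in each group. At 20 h it stood at 100 and 118.0 CPM in JNK7a, at 86.1, 92.5, 109.2 and 112.6 CPM in JNK7b, and at 97.3, 100.1, 103.0 and 103.9 CPM in control. At 11 h it stood at 31.7, 34.5 and 35.1 CPM in JNK7a, at 39.6 and 48.2 CPM in JNK7b, and at 33.9, 37.6 and 42.3 CPM in control. Every 20 h library was thus above every 11 h library, and at 20 h the 3 groups overlapped. A 24 h cosine fitted to log2 CPM gave an amplitude (the height of the curve above its mean) of 0.83 ± 0.06 in JNK7a, 0.61 ± 0.06 in JNK7b and 0.79 ± 0.06 in control (SE). The fitted peak came at 19.8 ± 0.3 h, 20.3 ± 0.4 h and 19.8 ± 0.3 h in those groups. The rhythm was called in all 3, with edgeR adjusted p-values of 6.9e-16, 2.2e-11 and 6.5e-16. Its amplitude was above that of 94.5% to 97.4% of all genes tested, whose median amplitude was 0.189 in JNK7a, 0.165 in JNK7b and 0.175 in control.

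Alas1 (chr9:106233455-106248654), which makes aminolevulinic acid, had the largest amplitude of the 9 genes in every group. Across the day it ranged between 112 and 1393 CPM in JNK7a (median 472), between 109 and 1618 CPM in JNK7b (median 447) and between 84.6 and 1731 CPM in control (median 488). The fitted amplitude was 1.40 ± 0.20 in JNK7a, 1.21 ± 0.19 in JNK7b and 1.31 ± 0.19 in control, so the fitted peak was 6.95, 5.34 and 6.13 times the trough. The edgeR adjusted p-values of the rhythm were 1.9e-06, 3.6e-05 and 5.0e-06. These amplitudes lay above those of 99.3% to 99.5% of all genes tested.

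The fitted Alas1 peak stood at 18.5 ± 0.5 h in JNK7a, at 19.0 ± 0.6 h in JNK7b and at 16.8 ± 0.6 h in control. At 20 h Alas1 stood at 1334 and 1375 CPM in JNK7a, at 726, 978, 1047 and 1251 CPM in JNK7b, and at 429, 566, 724 and 755 CPM in control. The JNK7a libraries of that hour were all above those of control, whereas the JNK7b libraries overlapped with control at their lowest. At 11 h Alas1 stood at 116, 267 and 387 CPM in JNK7a, at 118 and 204 CPM in JNK7b, and at 289, 461 and 573 CPM in control. There the JNK7b libraries lay below every control library and the JNK7a libraries overlapped with control. Against control, the peak was later by 1.73 h in JNK7a (95% interval 0.19 to 3.26 h) and by 2.23 h in JNK7b (0.56 to 3.90 h). The JNK7b fit includes 23 h replicate 4 at 1156.5 CPM, against 379.2, 412.3 and 446.9 CPM in the other libraries of that hour. No peak without it is given. The joint test of amplitude and hour gave unadjusted p = 0.0734 with edgeR adjusted p = 0.909 for JNK7a, and unadjusted p = 0.0454 with adjusted p = 0.952 for JNK7b, so neither difference was called.

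Alad (chr4:62509169-62519918), which joins aminolevulinic acid into porphobilinogen, had a smaller rhythm with an afternoon peak. At 17 h it stood at 148.1, 149.3 and 149.3 CPM in JNK7a, at 123.2, 137.9 and 140.7 CPM in JNK7b, and at 132.2, 140.2 and 143.5 CPM in control. At 5 h it stood at 91.8, 102.4 and 102.9 CPM in JNK7a, at 107.4 and 118.5 CPM in JNK7b, and at 92.6, 102.5 and 105.4 CPM in control. Within each group the 17 h libraries were above the 5 h libraries. The amplitude was 0.25 in JNK7a, 0.23 in JNK7b and 0.23 in control, with peaks at 15.7, 15.4 and 15.7 h (edgeR adjusted p = 8.2e-05, 7.9e-04 and 3.5e-04). Fech (chr18:64452914-64490251), which inserts iron into protoporphyrin, had an amplitude of 0.12 in JNK7a, 0.08 in JNK7b and 0.12 in control. Its rhythm was called in JNK7a (edgeR adjusted p = 0.0259) and control (0.0268) and missed the threshold in JNK7b (0.2101). The fitted Fech peak stood at 17.6 h in JNK7a and 17.3 h in control. On log2(TPM + 1) values the Fech rhythm had adjusted p = 0.816 in JNK7a and 0.633 in control, and with no filter on low counts 0.0651 in control. The call in JNK7a was lost without 5 h replicate 3 (0.0553), 17 h replicate 1 (0.0573) or 20 h replicate 1 (0.0572) of that group, and that in control without its 2 h replicate 2 (0.0525), 5 h replicate 2 (0.0698), 8 h replicate 1 (0.0660) or 14 h replicate 1 (0.0528).

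**Figure D1:**
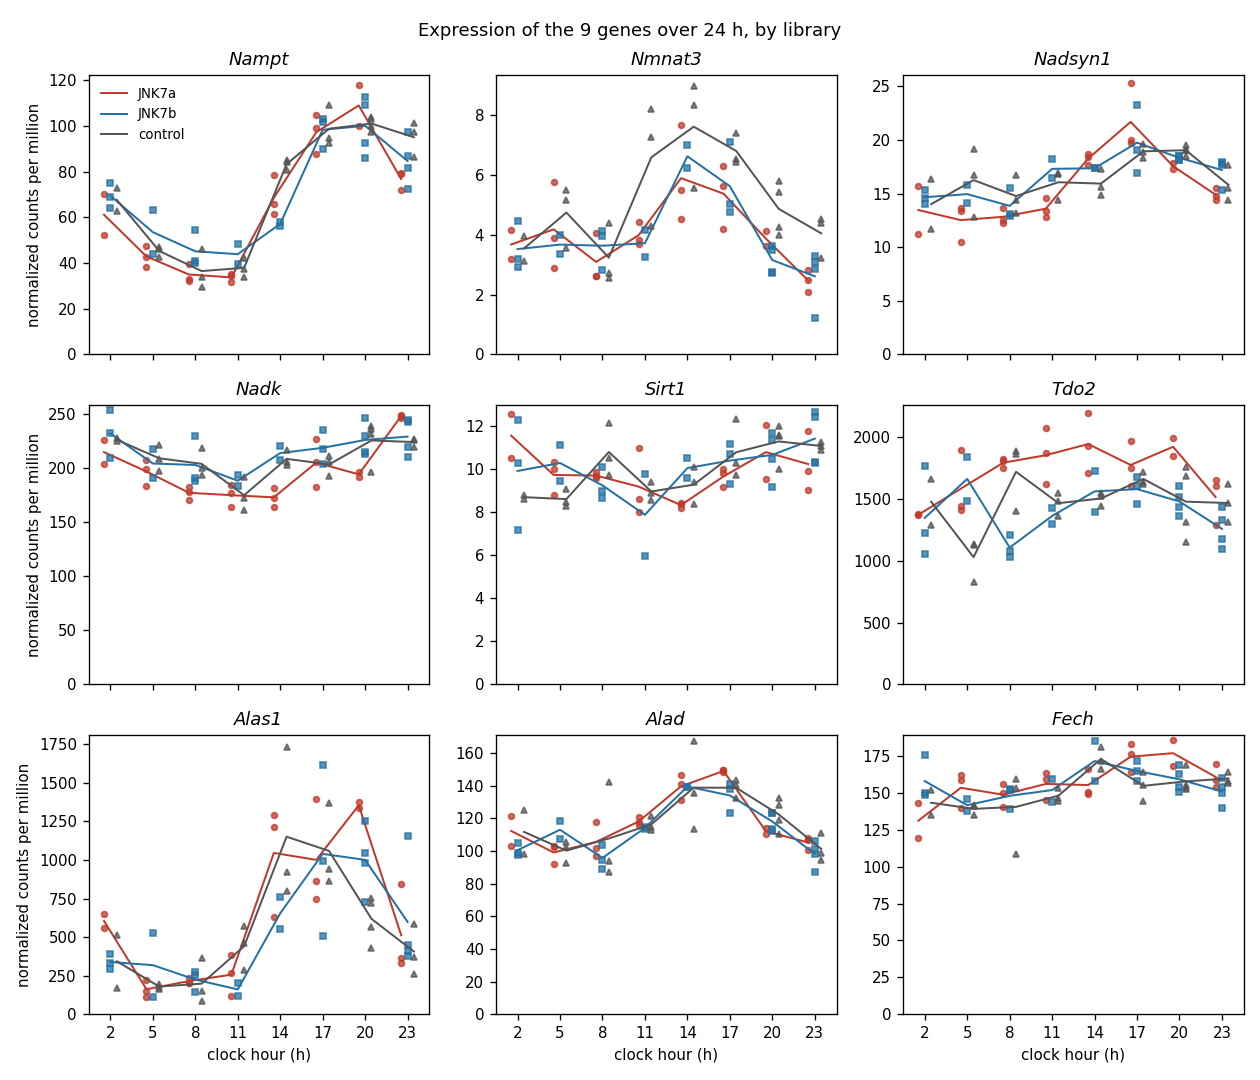
CPM of each of the 9 genes (y axis, its own scale for each gene) against clock hour (x axis, h), with JNK7a as red circles, JNK7b as blue squares and control as grey triangles; points are libraries and lines join the means of a group. Nampt and Alas1 swing over the day in all 3 groups, and the Tdo2 means of JNK7a lie above those of control at 7 of 8 hours.

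Nadsyn1 (chr7:143795584-143822849) turns nicotinic acid adenine dinucleotide into NAD. At 17 h it stood at 19.7, 20.0 and 25.4 CPM in JNK7a, at 17.0, 19.1 and 23.3 CPM in JNK7b, and at 18.4, 18.9 and 19.6 CPM in control. At 5 h it stood at 10.54, 13.41 and 13.65 CPM in JNK7a, at 14.1 and 15.8 CPM in JNK7b, and at 12.8, 16.8 and 19.2 CPM in control. The hours did not overlap in JNK7a or JNK7b and overlapped in control. The amplitude was 0.37 in JNK7a, 0.22 in JNK7b and 0.16 in control, with peaks at 17.4, 17.6 and 17.9 h (edgeR adjusted p = 4.4e-08, 0.0013 and 0.0236). The amplitude in JNK7a exceeded that in control by 0.20 (95% interval 0.08 to 0.33), with unadjusted p = 0.0065 and edgeR adjusted p = 0.676 for the rhythm difference. The call in control was lost without control 5 h replicate 3 (adjusted p = 0.0669), without control 8 h replicate 3 (0.0573), without both libraries that stood apart (0.0546), with no filter (0.0529) and on log2(TPM + 1) values (0.238).

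Nadk (chr4:155562378-155591001), the cytosolic kinase that turns NAD into NADP, peaked near 23 h. At that hour it stood at 247.1, 248.8 and 249.8 CPM in JNK7a, at 210.7, 219.6, 243.0 and 244.7 CPM in JNK7b, and at 219.4, 226.7 and 227.2 CPM in control. The amplitude was 0.22 in JNK7a, 0.12 in JNK7b and 0.14 in control, with peaks at 23.2, 22.2 and 23.1 h (edgeR adjusted p = 2.6e-06, 0.0229 and 0.0044). The call in JNK7b was lost on log2(TPM + 1) values (adjusted p = 0.280), with no filter (0.0559) and without any of 5 single libraries, those of JNK7b 8 h replicates 1 (0.0523) and 2 (0.0571), 11 h replicates 1 (0.0913) and 2 (0.0645) and 23 h replicate 1 (0.0572).

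Nmnat3 (chr9:98287435-98420438), an adenylyltransferase linked to mitochondria that completes NAD from its mononucleotide, peaked in the early afternoon. At 14 h it stood at 4.52, 5.51 and 7.68 CPM in JNK7a, at 6.25 and 7.01 CPM in JNK7b, and at 5.56, 8.34 and 8.97 CPM in control. At 23 h it stood at 2.09, 2.49 and 2.82 CPM in JNK7a, at 1.22, 2.86, 3.09 and 3.29 CPM in JNK7b, and at 3.24, 4.40 and 4.53 CPM in control. Within each group the 14 h libraries were above those of 23 h. The amplitude was 0.38 in JNK7a, 0.47 in JNK7b and 0.50 in control, with peaks at 14.4, 13.3 and 14.9 h (edgeR adjusted p = 0.0429, 0.0113 and 0.0034). On log2(TPM + 1) values the call in JNK7a was lost (adjusted p = 0.176), as it was without any of 9 single JNK7a libraries (2 h replicate 1, 5 h replicate 1, 14 h replicates 1 and 3, 17 h replicates 1 and 2, and 23 h replicates 1, 2 and 3), where adjusted p ran between 0.0537 and 0.1467. In JNK7b it was lost without 14 h replicate 1 (0.0507).

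Sirt1 (chr10:63319005-63381704), an NAD-dependent deacetylase that acts on clock proteins, and Tdo2 (chr3:81957090-81976202) had no rhythm called by edgeR in any group on all libraries. The Sirt1 amplitude was 0.15 in JNK7a, 0.17 in JNK7b and 0.13 in control (edgeR adjusted p = 0.0990, 0.0762 and 0.1399). The Tdo2 amplitude was 0.20, 0.13 and 0.16 in those groups (edgeR adjusted p = 0.0699, 0.4866 and 0.2587). Leaving out 1 library gave a call for Sirt1 in JNK7a (without 11 h replicate 3, adjusted p = 0.0417), JNK7b (without 2 h replicate 3, 0.0248) and control (without 8 h replicate 2, 0.0364). Sirt1 was also called in JNK7a on log2(TPM + 1) values (0.0263), and with limma voom in JNK7b (0.0270) and control (0.0410). Tdo2 was called in JNK7a with limma voom (0.0207), with added 12 h terms (0.0394), without both libraries that stood apart (0.0382), and without JNK7a 5 h replicate 1 (0.0366) or control 5 h replicate 2 (0.0446).

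In all, 7 of the 9 genes were called rhythmic in JNK7a, 6 in JNK7b and 7 in control, against 26.2%, 17.0% and 23.6% of all genes tested in those groups. The 6 genes called in all 3 groups were Nampt, Nmnat3, Nadsyn1, Nadk, Alas1 and Alad. The genes were chosen with earlier results of these data known, and their share above the background is no independent evidence. The timing references peaked in the same order in each group: Arntl at 4.1, 4.1 and 3.7 h in JNK7a, JNK7b and control, Nr1d1 at 13.5, 13.4 and 12.8 h, Dbp at 16.5, 16.5 and 15.9 h, and Per2 at 19.9, 20.3 and 19.9 h. Of the 6 genes, the peaks of Nampt stood nearest to those of Per2. No member passed the test for a rhythm difference between any pair of groups. Over all genes, 0.00695% passed for JNK7a against control, 0% for JNK7b against control and 0% for JNK7b against JNK7a with edgeR, while 803, 740 and 772 genes had an unadjusted p below 0.05. The 1 gene that passed was Acnat2, an acyltransferase gene picked out after its values were seen, with an amplitude of 1.30 and a peak at 4.4 h in JNK7a against 0.88 and 23.9 h in control (edgeR adjusted p = 0.0036). Counts were also simulated with the mean levels and totals of these libraries and the same spread for every gene. There the rhythm difference test recovered 15% of genes with an amplitude of 0.5 in one group and 0 in the other. At an amplitude of 1 it recovered 100%. The spread of each member was not used, so these shares are not the recovery for the 9 genes. The Nampt amplitude in JNK7b was 0.19 below that in control (95% interval of the difference -0.35 to -0.02; unadjusted p = 0.0482, edgeR adjusted p = 0.963). It was 0.22 below that in JNK7a (unadjusted p = 0.0234, adjusted p = 0.891). The Per2 amplitude was 1.46 in JNK7a and 1.53 in JNK7b, against 0.99 in control. The edgeR rhythm difference test gave unadjusted p = 0.0162 and 0.0050 (adjusted p = 0.796 and 0.6615). For Nr1d1 the amplitudes were 2.38, 2.59 and 1.975 (unadjusted p = 0.1251 and 0.0249, adjusted p = 0.914 and 0.897). Arntl and Dbp had no unadjusted p below 0.05 against control.

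**Figure D2:**
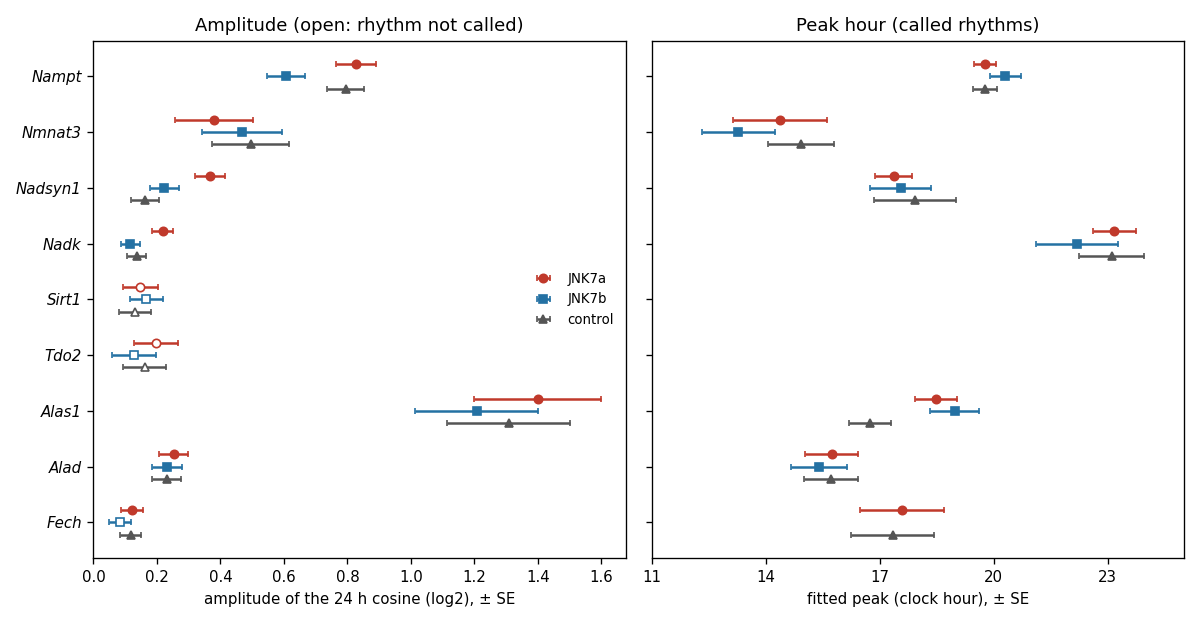
Fitted amplitude in log2 CPM of the 9 genes, and fitted peak in clock hours (h) where the rhythm was called, with bars for the standard error. JNK7a is shown as red circles, JNK7b as blue squares and control as grey triangles. Filled marks are rhythms called at adjusted p below 0.05. Sirt1 and Tdo2 in all groups and Fech in JNK7b therefore have no peak mark. Alas1 and Nampt have the largest amplitudes in each group, and the Alas1 peak stands at 18.5 h in JNK7a, 19.0 h in JNK7b and 16.8 h in control.

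Tdo2, the liver enzyme that starts the breakdown of tryptophan to kynurenine, had the smallest p-value of the 9 genes for a level difference between JNK7a and control. Over the day it ranged between 1289 and 2195 CPM in JNK7a (median 1754), between 1033 and 1841 CPM in JNK7b (median 1430) and between 826 and 1892 CPM in control (median 1504). The ranges of the groups overlapped over the whole day, but at matched hours all JNK7a libraries lay above all control libraries at 5, 11, 14 and 20 h. Averaged over the 8 hours, Tdo2 was higher in JNK7a than in control by 0.23 on the log2 scale (95% interval 0.12 to 0.33; edgeR adjusted p = 0.0018), with a higher mean at 7 of 8 hours. It was lower in JNK7b than in JNK7a by a log2 fold change of -0.28 (-0.39 to -0.17; edgeR adjusted p = 1.6e-04), with a lower mean at 7 of 8 hours. Between JNK7b and control it did not pass the test (-0.05, interval -0.16 to 0.06; edgeR adjusted p = 0.602). Hepatocyte markers were also called: 4 of 8 were higher and 0 lower in JNK7a against control, against 9.66% and 11.1% of all genes. In JNK7b against JNK7a 0 were higher and 7 lower, against 10.9% and 11.4%. In JNK7b against control, where Tdo2 was not called, 0 markers were higher and 3 lower, against 6.59% and 6.85%. Their summed level ran between 74079 and 151392 CPM in JNK7a, between 59928 and 97829 CPM in JNK7b and between 77051 and 103856 CPM in control, and their part in the result was not tested. In whole liver, fewer cells of a type and less RNA per cell cannot be told apart.

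The Tdo2 difference between JNK7b and control was largest at 5 h and 8 h, with opposite signs. At 5 h Tdo2 stood at 1485 and 1841 CPM in JNK7b and at 826, 1126 and 1138 CPM in control, so every JNK7b library was higher. At 8 h it stood at 1033, 1083 and 1207 CPM in JNK7b and at 1407, 1862 and 1892 CPM in control, so every JNK7b library was lower. The log2 difference was 0.70 at 5 h and -0.63 at 8 h. At 2, 11, 14, 17, 20 and 23 h it was -0.16, -0.11, 0.05, -0.08, 0.02 and -0.22. JNK7a also stood above control at 5 h, by 0.62 on the log2 scale. The hours 8, 11, 20 and 23 were set against 2, 5, 14 and 17 with earlier results of these data known. The mean log2 difference of JNK7b from control was -0.23 in the first set and 0.13 in the second, a difference of -0.38 in the fit (SE 0.11; edgeR adjusted p = 0.0353). It was called for 1 of the 9 genes, Tdo2, against 4.83% of all genes tested (2.62% with a positive and 2.21% with a negative contrast, which gives the change of the difference between hour sets and not a level). Of the genes called, 54.2% had a positive contrast, and 76.3% when log2(TPM + 1) values were tested. Without both libraries that stood apart, control 8 h replicate 3 and JNK7b 5 h replicate 2, the adjusted p was 0.131, on log2(TPM + 1) values it was 0.173, and with only the compared groups in the fit it was 0.0521. The call was also lost without any of 9 single libraries: JNK7b 2 h replicate 2 (adjusted p = 0.0671), 5 h replicate 2 (0.1015), 11 h replicate 1 (0.0679) and 14 h replicate 2 (0.0802), and control 2 h replicate 2 (0.1010), 5 h replicate 2 (0.0599), 8 h replicate 3 (0.0546), 20 h replicate 3 (0.0511) and 23 h replicate 3 (0.0541). For JNK7b against JNK7a the same contrast was -0.34 (edgeR adjusted p = 0.0572). It passed with median-ratio size factors (0.0492), limma voom (0.0467), DESeq2 (0.0325), only the compared groups in the fit (0.0462), and in 18 of the 69 fits without a single library (lowest 0.0231, without JNK7a 5 h replicate 1). Over all genes 7.38% were called (3.51% with a positive and 3.86% with a negative contrast). Of these, 47.7% had a positive contrast, against 88.3% on log2(TPM + 1) values, where the median of all genes stood at 0.115 rather than 0.02. For JNK7a against control it was -0.04 (adjusted p = 0.981), where edgeR called 0% of genes, 988 had an unadjusted p below 0.05, and DESeq2 and limma voom called 19 and 1.

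Nmnat3 was lower than in control in both spliceoform groups. It averaged 4.10 ± 1.39 CPM in JNK7a (SD, n = 22), 3.90 ± 1.40 CPM in JNK7b (n = 23) and 5.24 ± 1.83 CPM in control (n = 24). The log2 fold change was -0.33 in JNK7a (95% interval -0.53 to -0.13; edgeR adjusted p = 0.0125) and -0.35 in JNK7b (-0.54 to -0.15; edgeR adjusted p = 0.0139), each with a lower mean at 7 of 8 hours. These comparisons share the control libraries. All JNK7a libraries lay below all control libraries at 17 and 23 h, and all JNK7b libraries did at 11 and 20 h. At 20 h Nmnat3 stood at 3.62 and 4.13 CPM in JNK7a, at 2.737, 2.772, 3.501 and 3.633 CPM in JNK7b, and at 4.00, 4.26, 5.43 and 5.81 CPM in control.

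Nadk averaged 197.7 ± 26.8 CPM in JNK7a, 217.5 ± 20.0 CPM in JNK7b and 209.8 ± 19.4 CPM in control. At 14 h it stood at 164.6, 173.0 and 182.1 CPM in JNK7a, at 207.7 and 220.8 CPM in JNK7b, and at 203.6, 206.0 and 217.1 CPM in control, so the JNK7a libraries lay below all others. At 23 h, its peak, the order was reversed and the JNK7a libraries lay above all others. Over the day Nadk was lower in JNK7a than in control by a log2 fold change of -0.09 (95% interval -0.15 to -0.03; edgeR adjusted p = 0.0386), with a lower mean at 5 of 8 hours. That call was lost in 18 of the 69 fits without a single library, 7 of them JNK7a and 11 control libraries, where the adjusted p ran between 0.0514 and 0.0846 and was highest without JNK7a 2 h replicate 2. It was also lost when no filter on low counts was applied (0.273). Nadk was higher in JNK7b than in JNK7a by 0.12 on the log2 scale (0.06 to 0.18; edgeR adjusted p = 0.0032), with a higher mean at 7 of 8 hours.

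Nampt averaged 63.8 ± 27.0 CPM in JNK7a, 73.4 ± 23.4 CPM in JNK7b and 72.1 ± 27.6 CPM in control, with the daily rhythm included in these SDs. The log2 fold change at matched hours was -0.12 in JNK7a against control (95% interval -0.22 to -0.02; edgeR adjusted p = 0.0806), which missed the threshold. It passed on log2(TPM + 1) values (-0.18, adjusted p = 0.0351), without both libraries that stood apart (-0.14, adjusted p = 0.0287), without control 8 h replicate 3 alone (0.0379) and without JNK7a 2 h replicate 2 (0.0290). In JNK7b against JNK7a it was 0.13 (edgeR adjusted p = 0.0632), and without both libraries that stood apart the adjusted p was 0.0107, and on log2(TPM + 1) values 0.0469; leaving out 14 single libraries in turn also gave a call, with the lowest adjusted p of 0.0178 without JNK7b 5 h replicate 2. Nadsyn1 averaged 15.6 ± 3.5 CPM in JNK7a, 16.8 ± 2.3 CPM in JNK7b and 16.6 ± 2.3 CPM in control, and its level was not called in any pair. On log2(TPM + 1) values it passed in JNK7a against control (adjusted p = 0.0450) and in JNK7b against JNK7a (0.0224), where it also passed without JNK7a 2 h replicate 2 (0.0201) or 17 h replicate 2 (0.0334).

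The heme enzymes and Sirt1 showed no called level difference. Alas1 averaged 613 ± 454 CPM in JNK7a, 586 ± 410 CPM in JNK7b and 561 ± 405 CPM in control, and its log2 fold change in JNK7a against control was 0.16 with a wide interval (-0.20 to 0.51; edgeR adjusted p = 0.617). Alad averaged 118.0 ± 18.4, 112.5 ± 16.2 and 117.5 ± 19.9 CPM in JNK7a, JNK7b and control. Fech averaged 157.4 ± 15.2, 155.8 ± 11.9 and 152.6 ± 14.8 CPM in those groups. Sirt1 averaged 9.78 ± 1.24, 10.2 ± 1.6 and 10.0 ± 1.3 CPM. For Sirt1 the interval of the log2 fold change ran from -0.11 to 0.10 in JNK7a against control and from -0.10 to 0.11 in JNK7b against control.

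In JNK7a against control, 1 of the 9 genes was called higher and 2 lower, against 9.66% and 11.1% of all genes tested (20.7% in either direction). In JNK7b against control, 0 were higher and 1 lower, against 6.59% and 6.85% (13.4% in either direction). In JNK7b against JNK7a, 1 was higher and 1 lower, against 10.9% and 11.4% (22.3% in either direction). With 9 genes, these counts are near the background. Among all called genes the share called higher in JNK7a against control was 46.6%, and it was 22.6% when log2(TPM + 1) values were tested. In JNK7b against JNK7a it was 48.9%, and 74.5% on log2(TPM + 1) values. The directions of the Tdo2, Nmnat3 and Nadk calls were the same on both scales, with larger Nadk values on log2(TPM + 1), at -0.16 in JNK7a against control and 0.18 in JNK7b against JNK7a.

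**Figure D3:**
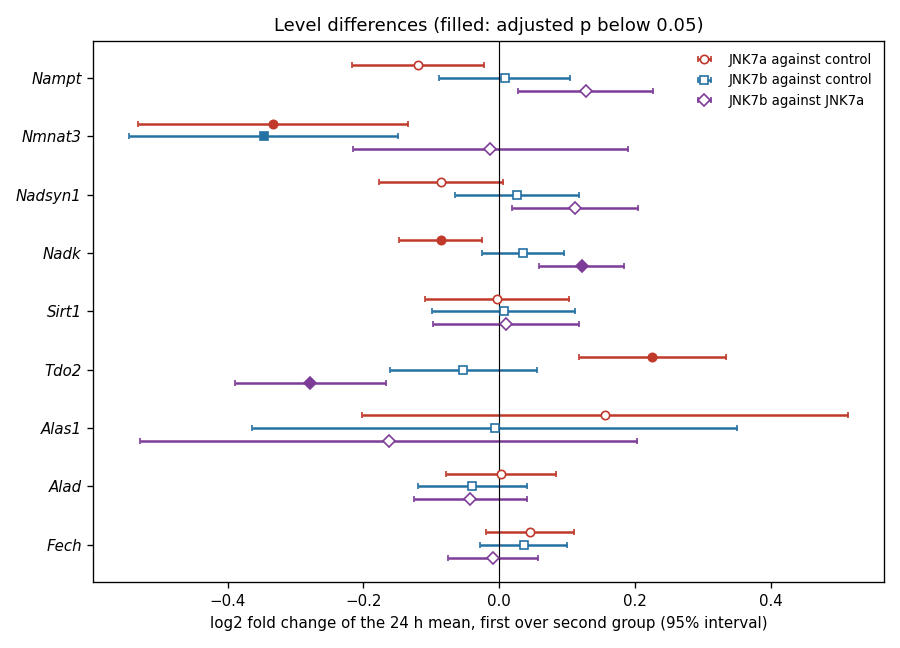
Log2 fold change of the level over 8 matched hours for the 9 genes, with 95% intervals, for JNK7a against control (red circles), JNK7b against control (blue squares) and JNK7b against JNK7a (purple diamonds); filled marks passed adjusted p below 0.05. Tdo2 stands at 0.23 in JNK7a against control, and Nmnat3 at -0.33 in JNK7a and -0.35 in JNK7b against control.

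Compared per length of transcript, in TPM (transcripts per M) over all 69 libraries, the genes spanned a wide range of levels. Tdo2 averaged 1020 ± 167 TPM (SD, n = 69) and Alas1 733 ± 491 TPM. Alad averaged 144 ± 19 TPM, Nadk 96.5 ± 15.7 TPM, Fech 91.5 ± 9.9 TPM and Nampt 21.6 ± 8.1 TPM. Nadsyn1 averaged 8.76 ± 1.49 TPM, Sirt1 3.62 ± 0.59 TPM and Nmnat3 3.02 ± 1.12 TPM. Tdo2 and Alas1, Nadk and Fech, and Sirt1 and Nmnat3 are neighbours in this order whose means differ by less than the larger of their SDs.

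The wider NAD synthesis and salvage list had 14 tested genes. In JNK7a against control 1 rose and 5 fell (9.66% and 11.1% of all genes), with a median log2 fold change of -0.10 against 0.00 over all genes. Pnp, a purine nucleoside phosphorylase that also splits nicotinamide riboside, rose by 0.44 (edgeR adjusted p = 2.9e-09). Nnt, the mitochondrial transhydrogenase that passes electrons between NADH and NADPH, stood at -0.36 (3.6e-09), Slc25a51, the mitochondrial NAD carrier, at -0.34 (0.0045), and Nudt12, a hydrolase of NADH, at -0.18 (0.0100). In JNK7b against control 1 rose and 3 fell (6.59% and 6.85% of all genes; median -0.06, against -0.01 over all genes): Pnp stood at 0.17 (edgeR adjusted p = 0.0166), Nnt at -0.14 (0.0134), the mitochondrial NAD kinase Nadk2 at -0.13 (0.0072), and Nmnat3 as above. The Pnp call was lost without JNK7b 5 h replicate 2 and control 8 h replicate 3 (0.1185), and the Nnt call on log2(TPM + 1) values (0.1528). In JNK7b against JNK7a, where 10.9% of all genes were higher and 11.4% lower, 2 were higher (Nnt at 0.21 and Nadk) and 2 lower (Pnp at -0.27 and Nadk2 at -0.13, a Nadk2 call lost on log2(TPM + 1) values with adjusted p = 0.3307). Of the 14, 10 were rhythmic in JNK7a, 7 in JNK7b and 9 in control, against 26.2%, 17.0% and 23.6% of all genes. These counts include Nampt, Nmnat3, Nadsyn1 and Nadk, already counted above as rhythmic in all 3 groups.

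Of 11 tested kynurenine pathway genes, 3 rose and 0 fell in JNK7a against control, against 9.66% and 11.1% of all genes. Besides Tdo2 these were Kyat1, a kynurenine aminotransferase, at 0.71 (edgeR adjusted p = 8.9e-10), and Acmsd, whose enzyme diverts the pathway away from NAD, at 0.71 (0.0020). In JNK7b against JNK7a 0 were higher and 6 lower (10.9% and 11.4% of all genes), with a median log2 fold change of -0.19 against -0.01 over all genes. Among them Acmsd stood at -0.83 (edgeR adjusted p = 4.0e-04), Kyat1 at -0.38 (2.9e-04) and Kynu, the kynureninase, at -0.19 (0.0036; 0.0875 on log2(TPM + 1) values). In JNK7b against control 1 rose and 3 fell (6.59% and 6.85% of all genes): Kyat1 was higher at 0.33 (edgeR adjusted p = 0.0023), and Kmo, the kynurenine hydroxylase, stood at -0.24 (9.6e-04), Ido2 at -0.19 (0.0275) and Haao at -0.13 (0.0316). The Ido2 and Haao calls were lost in 5 and 12 of the 69 fits without a single library, with adjusted p up to 0.0746 and 0.1298. Both were also lost with no filter (0.0796 and 0.0729), Ido2 with only the compared groups in the fit (0.0552), and Haao with limma voom (0.0565) and without both libraries that stood apart (0.0677). These lists were chosen with earlier results of the data known, and the hepatocyte markers given with Tdo2 moved in the same comparisons.

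Among 17 tested consumers of NAD or nicotinamide, 3 rose and 3 fell in JNK7a against control, 2 rose and 3 fell in JNK7b against control, and 1 was higher and 3 lower in JNK7b against JNK7a. Over all genes 20.7%, 13.4% and 22.3% were called in either direction in those comparisons. Nnmt, which methylates nicotinamide for removal, averaged 66.4 ± 18.1 CPM in JNK7a (SD, n = 22), 34.9 ± 21.3 CPM in JNK7b (n = 23) and 66.0 ± 32.4 CPM in control (n = 24). Its log2 fold change was -0.89 in JNK7b against control (edgeR adjusted p = 3.1e-04) and -1.02 in JNK7b against JNK7a (3.0e-05). Parp14, a mono-ADP-ribosyltransferase known from interferon responses, rose by 0.48 in JNK7a against control (edgeR adjusted p = 1.1e-07) and by 0.61 in JNK7b against control (5.7e-10). The mitochondrial sirtuin Sirt3 stood at -0.13 (edgeR adjusted p = 0.0032) in JNK7a and at -0.12 (0.0065; 0.0973 with no filter) in JNK7b against control. Sirt5, also mitochondrial, stood at -0.29 (0.0046) in JNK7a against control and at 0.33 (0.0014) in JNK7b against JNK7a. Of 11 tested markers of T and NK cells, 8 were higher and 0 lower in JNK7a against control, against 9.66% and 11.1% of all genes. In JNK7b against control 4 were higher and 1 lower, against 6.59% and 6.85%. Their median log2 fold change was 0.97 in JNK7a and 0.80 in JNK7b. The 12 markers in the files summed to between 4.54 and 18.1 CPM in JNK7a, between 2.09 and 13.5 CPM in JNK7b and between 2.06 and 9.82 CPM in control. None was at 0 in all libraries, and their part in the Parp14 result was not tested.

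Of the 9 heme synthesis genes, 1 rose and 0 fell in JNK7a against control, where 20.7% of all genes were called in either direction: Ppox, the oxidase before the ferrochelatase step, at 0.52 (edgeR adjusted p = 4.2e-08). Ppox was lower in JNK7b than in JNK7a at -0.33 (edgeR adjusted p = 2.1e-04), the only heme synthesis gene called in that pair, where 22.3% of all genes were. In JNK7b against control, where 13.4% of all genes were called, 0 rose and 2 fell: Cpox, the oxidase before Ppox, at -0.19 (edgeR adjusted p = 0.0030) and Alas2, the form of the first enzyme used in red cell precursors, at -0.34 (0.0025). Alas2 is also the 1 of 5 tested red blood cell markers that was called in that comparison. Of 19 tested genes of heme transport and breakdown, 3 rose and 2 fell in JNK7a against control, 1 rose and 3 fell in JNK7b against control, and 3 were higher and 8 lower in JNK7b against JNK7a, against 20.7%, 13.4% and 22.3% of all genes in either direction. Abcb10, a mitochondrial transporter that acts in heme synthesis, stood at 0.26 in JNK7a against control (edgeR adjusted p = 1.0e-04) and at -0.25 in JNK7b against JNK7a (3.1e-04). Slc46a1, a carrier of folate and heme, stood at -0.27 in JNK7b against control (edgeR adjusted p = 4.2e-07) and at -0.36 against JNK7a (2.3e-10). Of the 9 heme synthesis genes, 7 were rhythmic in JNK7a, 3 in JNK7b and 5 in control, against 26.2%, 17.0% and 23.6% of all genes. These counts include the calls of Alas1, Alad and Fech already given above.

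The 19 core clock genes gave a frame for these rhythms: 19 were rhythmic in JNK7a, 18 in JNK7b and 18 in control, against 26.2%, 17.0% and 23.6% of all genes. In level, 0 rose and 2 fell in JNK7a and 0 rose and 3 fell in JNK7b against control, where 20.7% and 13.4% of all genes were called. Per2, a repressor of the clock, stood at -0.41 in JNK7a (edgeR adjusted p = 0.0121) and at -0.43 in JNK7b (0.0142), and the second call was lost without both libraries that stood apart (0.0769). Hlf, a PAR-domain factor, stood at -0.15 in JNK7a (edgeR adjusted p = 0.0210) and at -0.20 in JNK7b (0.0029), and the call in JNK7a was lost without JNK7a 2 h replicate 2 (0.0671). Tef, a factor of the same family, stood at -0.20 in JNK7b (0.0495), a call lost in 52 of the 69 fits without a single library and without both libraries that stood apart (0.0672).

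**Figure D4:**
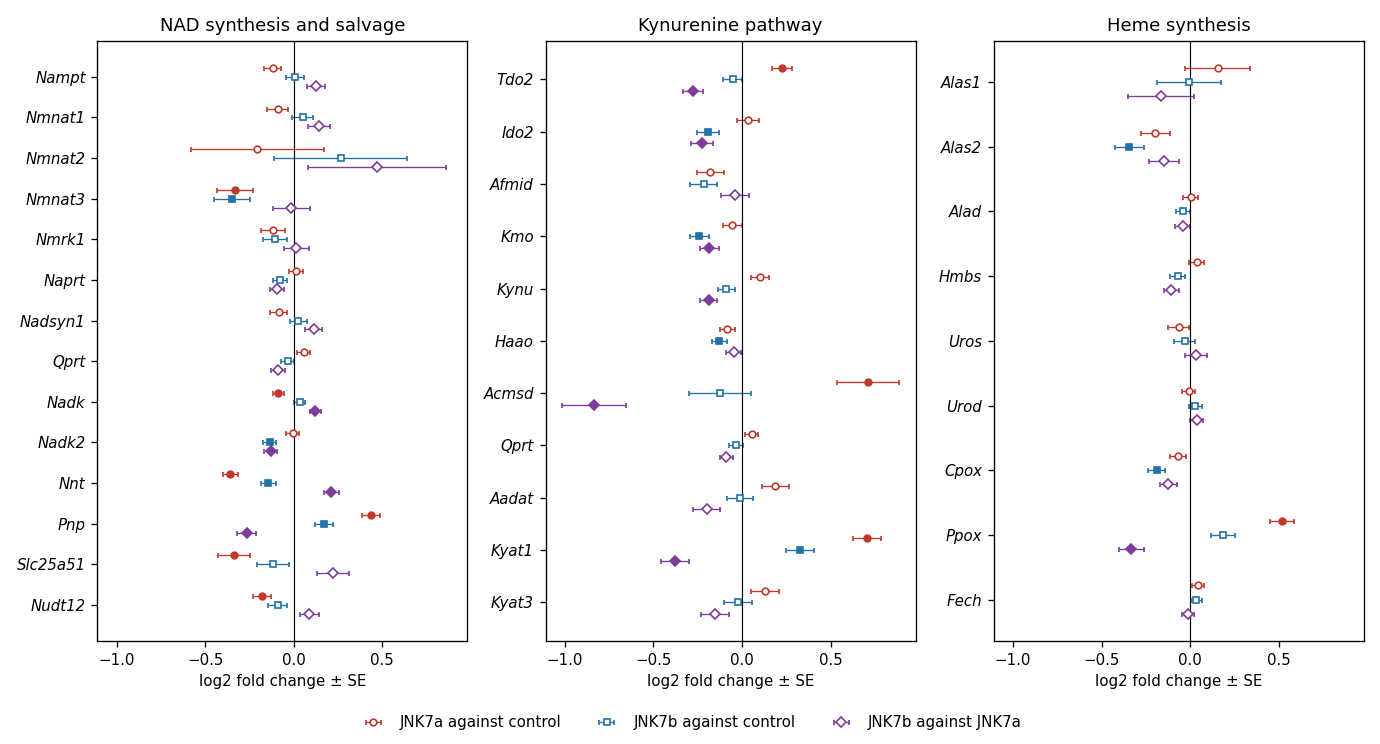
Log2 fold change of each tested gene of the NAD synthesis and salvage, kynurenine pathway and heme synthesis lists (points), with bars for the standard error. JNK7a against control is shown as red circles, JNK7b against control as blue squares and JNK7b against JNK7a as purple diamonds. Filled marks passed adjusted p below 0.05. In the kynurenine list 3 of 11 genes are called higher in JNK7a against control and 6 of 11 lower in JNK7b against JNK7a.

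Across the 24 means of group and hour, the genes most like each member were sought among 7172 genes with at least 10 CPM on average. Points at the same hour share the clock time, so these correlations are descriptions. Nampt was most like Nmrk1 (Pearson r = 0.958), the nicotinamide riboside kinase, followed by Slc16a12 (0.953) and Marveld1 (0.951). Alas1 was most like Mtss1 (0.902), Efhd2 (0.889) and Coq10b (0.882). Alad was most like Mrpl18 (0.888), Atad3a (0.880) and Kpna2 (0.880), and Tdo2 was most like Serpina1c (0.859), Pecr (0.847) and Akr1c13 (0.844). The leading gene was Smim7 for Nmnat3 (0.889), Osbpl1a for Nadsyn1 (0.867), Uox for Fech (0.832), Ywhag for Nadk (0.8286) and Baz1a for Sirt1 (0.769). Among the members and timing references, Nampt ran with Per2 (r = 0.92, 24 means) and with Alas1 (0.81), and Alad ran with Dbp (0.85) and opposite to Arntl (-0.91).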

How the data were processed

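Liver RNA was poly(A)-selected and sequenced as 150-base read pairs, per the labels' protocols. The submitters' processing notes name cutadapt, Salmon and mm10, with no role or version given. The deposited files hold estimated counts for each gene, which were rounded here, and TPM from the authors, which scale for transcript length. Lines sharing a symbol (234) were summed.

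Counts were tested with edgeR 4.0.16 in R 4.3.3 (TMM scaling, filterByExpr by group, robust quasi-likelihood) on all 69 libraries and 14398 genes, with Benjamini-Hochberg adjustment over all of them and a threshold of 0.05. Levels and hour sets came from a model with 24 cells of group and hour (45 residual degrees of freedom), and rhythms from a 24 h cosine and sine per group (60 residual degrees of freedom). Amplitudes and peaks are least-squares fits on log2 CPM with a prior count of 2. Intervals are 1.96 standard errors either side. limma 3.58.1, DESeq2 1.42.0, TPM with pseudocounts of 1 and 0.1, other filters and fits without each library were alternatives. The tests were tried on simulated counts.

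The members, lists and hour sets were chosen with earlier results of these data known. The genes named are all 9 members, the targeted genes, 4 timing references, up to 4 called genes of each list and comparison with the smallest p, and the 3 genes most like each member. Of the list genes so chosen, the text gives the values of those described. Replicates were no duplicates: the counts of 69 pairs differed by 20.7 to 240.4 times the sampling noise (chi-square per degree of freedom). Replicates share no stated animal or day.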

Additional observations from a re-analysis of the deposited data

Results flagged for a closer look

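In 27 groups of 4 libraries (3 cells of group and hour for each of the 9 genes), 3 held a library far from the other 3, and chance gives about 1 in 20 such groups. Alas1 stood at 1156.5 CPM in a JNK7b library at 23 h, against 379.2, 412.3 and 446.9 CPM in the others. Nadsyn1 stood at 15.34 CPM in a JNK7b library at 23 h, against 17.63, 17.87 and 18.0 CPM in the others. Both values come from replicate 4. Fech stood at 169.0 CPM in control 20 h replicate 4, against 152.9, 153.7 and 155.5 CPM. The difference of Tdo2 between JNK7b and control changed with the hour set by -0.38 on the log2 scale (edgeR adjusted p = 0.0353), where hours 8, 11, 20 and 23 were set against hours 2, 5, 14 and 17. These sets were chosen with earlier results of these data known, so the p-value is no independent evidence. That call was lost without any of 9 single libraries and in other settings, as given with Tdo2 above.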

How the results depend on the processing

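The level calls of Tdo2 and Nmnat3 and the rhythm calls of Nampt, Alas1 and Alad in all 3 groups held under every alternative run. Counts of genes called stayed within 1.5 times except as follows. Without a filter on low counts, 426 genes passed the rhythm difference test for JNK7a against control, 443 for JNK7b against JNK7a and 426 for JNK7b against control, and the hour-set test for JNK7b against JNK7a gave 698 in place of 1062. With a mean of at least 1 CPM, the rhythm difference test for JNK7b against JNK7a called 1. For the hour sets of JNK7a against control, limma voom called 1, DESeq2 19, and fits without a single library 0 to 9. The cause was not tested.

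Values near 0 that changed sign were never called. On log2(TPM + 1) and log2(TPM + 0.1), JNK7a against control gave -0.0611 and -0.0614 for Alad and -0.0249 and -0.0251 for Fech. JNK7b against JNK7a gave 0.0408 and 0.0540 for Nmnat3, 0.0246 and 0.0247 for Alad, and 0.0569 and 0.0575 for Fech. JNK7b against control gave -0.0023 and -3.4e-04 for Nampt and -0.0041 and -0.0072 for Sirt1. limma voom gave 0.0306 for Nmnat3 in JNK7b against JNK7a and -0.0020 for Nampt in JNK7b against control. Without both libraries that stood apart, the values were -0.0140 for Alad in JNK7a against control, 0.0058 for Nmnat3 and -5.6e-04 for Sirt1 in JNK7b against JNK7a, and -0.0067 for Sirt1, 0.0436 for Alas1 and 0.0211 for Mapk8 in JNK7b against control. Without single libraries, JNK7a against control ran from -0.0258 to 0.0143 for Sirt1, from -0.0170 to 0.0333 for Alad and, in the hour sets, from -0.0869 to 0.0063 for Tdo2. JNK7b against JNK7a ran from -0.0390 to 0.0245 for Nmnat3, from -0.0397 to 0.05 for Sirt1 and from -0.0254 to 0.0079 for Fech. JNK7b against control ran from -0.0282 to 0.0377 for Nampt, from -8.3e-04 to 0.0594 for Nadsyn1, from -0.0420 to 0.0477 for Sirt1, from -0.1995 to 0.1197 for Alas1 and from -0.0441 to 0.0224 for Mapk8.

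With a replicate block, 2985, 1912 and 3127 genes were called in level for JNK7a against control, JNK7b against control and JNK7b against JNK7a. Among named genes the block ended 1 call, that of Tef in JNK7b against control. Deviations of same-numbered libraries of different groups had a median r of 0.002 over 62 pairs, with 6 above 0.1. Each deviation was taken from the mean of the few libraries of its own group and hour, which ties those deviations to each other. These values therefore cannot decide whether the replicate numbers pair samples. Fits without a library kept the gene set and dispersions of the full fit. Nmnat3 had the lowest mean CPM of the 9 genes, and how depth limits each gene was not compared.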
